A study of Mus musculus with 4 samples.

Results

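The expression of cell junction genes was described by sort and tissue in Tas2r143-reporter mice, from which cells with EGFP and cells with Tomato had been sorted out of trachea and stomach. The group was defined by symbol, as protein-coding genes of the claudins (Cldn), classical and related cadherins (Cdh), zonula occludens proteins (Tjp), connexins (Gja, Gjb, Gjc), desmocollins and desmogleins (Dsc, Dsg) and plakophilins (Pkp), together with Ocln, Marveld genes, F11r, Dsp, Jup and Epcam. It held 85 of the 48709 genes listed. Of these, 31 belong to the tight junction, 23 are cadherins, 15 belong to the desmosome and 15 to the gap junction. Epcam was kept apart because its protein was used in sorting.

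All mice carried the Tas2r143-CreERT2 transgene together with the Rosa26flox-mT-stop-flox-mG reporter on a C57BL/6 background and received tamoxifen on 5 days, with analysis 5 days after the last dose. CreERT2 was driven by the Tas2r143 promoter on a bacterial artificial chromosome, and recombined cells and their progeny exchange membrane Tomato for membrane EGFP. The EGFP sort took EGFP+ DAPI- cells, and the Tomato sort took Tomato+ EpCAM+ EGFP- DAPI- cells, so that EpCAM was required in the Tomato sort alone. Cells of 3 mice were pooled for each sort and tissue, which gave 4 libraries and no replicates. The title and the tissue field of each sample name opposite tissues, and the groups follow the title, which the columns also carry. By that assignment Cyp2f2, a gene of club cells, had 8937 normalized counts in EGFP-positive and 337775 in Tomato-positive cells of the trachea, against 0 and 69 in the stomach. Pgc, a gene of chief cells, had 10 and 2 in the trachea and 39704 and 992416 in the stomach. The tuft cell genes Trpm5 and Dclk1 were higher in the EGFP library of either tissue, at 21065 against 265 and 6888 against 86 in the trachea and at 14548 against 376 and 33844 against 2049 in the stomach.

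Epithelial cells are held together from the apical side downwards by tight junctions, adherens junctions and desmosomes, while gap junctions connect the cytoplasm of neighbours. Claudins set which ions and solutes pass between cells, occludin and the other MARVEL proteins organise the strands they form, and the zonula occludens proteins tie the strands to actin. Classical cadherins bind each other across the cell border and hold catenins on the inside, desmosomal cadherins hold plakoglobin, plakophilins and desmoplakin and through them the keratin filaments, and connexins assemble into channels. The stomach and the trachea are known for different claudins, and basal and squamous cells for connexins and desmosomal cadherins that simple epithelia lack.

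The values are normalized counts, that is, reads per gene after the authors' scaling of each library, given as whole numbers. The libraries summed to between 9979296 and 15433150 normalized counts, and the estimated depth was 6200000 reads in the EGFP library of the trachea and between 17300000 and 18900000 in the others. A floor of 3 reads was worth 4.83 normalized counts in that library and between 2.36 and 2.45 in the others. In the EGFP library of the trachea, 100 of 3415 coding genes at 200 or more in the other 3 libraries were listed at 0, against between 2 and 41 in the others, and none of the 85 junction genes was among these. A gene is therefore described as listed at 0 where it has no count, and no fold change with an interval is given against such a value. Where a log2 value with a pseudocount is set against a 0, in the plots, the medians and limma, its size depends on the pseudocount. Below, 4 values in a row are in the order EGFP trachea, Tomato trachea, EGFP stomach and Tomato stomach.

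Of the 85 junction genes, 43 reached 50 normalized counts in at least 1 library and 31 of these reached 200. Another 9 stayed between 1 and 49, and 33 were listed at 0 in every library. Between 23 and 34 junction genes reached 50 in a library, the most in the Tomato library of the trachea. The listed-at-0 genes included Cldn1, 11 further claudins, 13 cadherins, the desmosomal cadherins Dsc1, Dsg1a, Dsg1b, Dsg1c and Dsg4 of the upper epidermis, and connexins such as Gja3 and Gjc3. The 9 genes between 1 and 49 included Cdh3, Cdh23, Dsc3, Dsg3, Pkp1, Gja5, Gja6 and Cldn2, with the highest value, 46, for Cldn2, a cation pore claudin, in the Tomato library of the trachea.

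**Figure D1:**
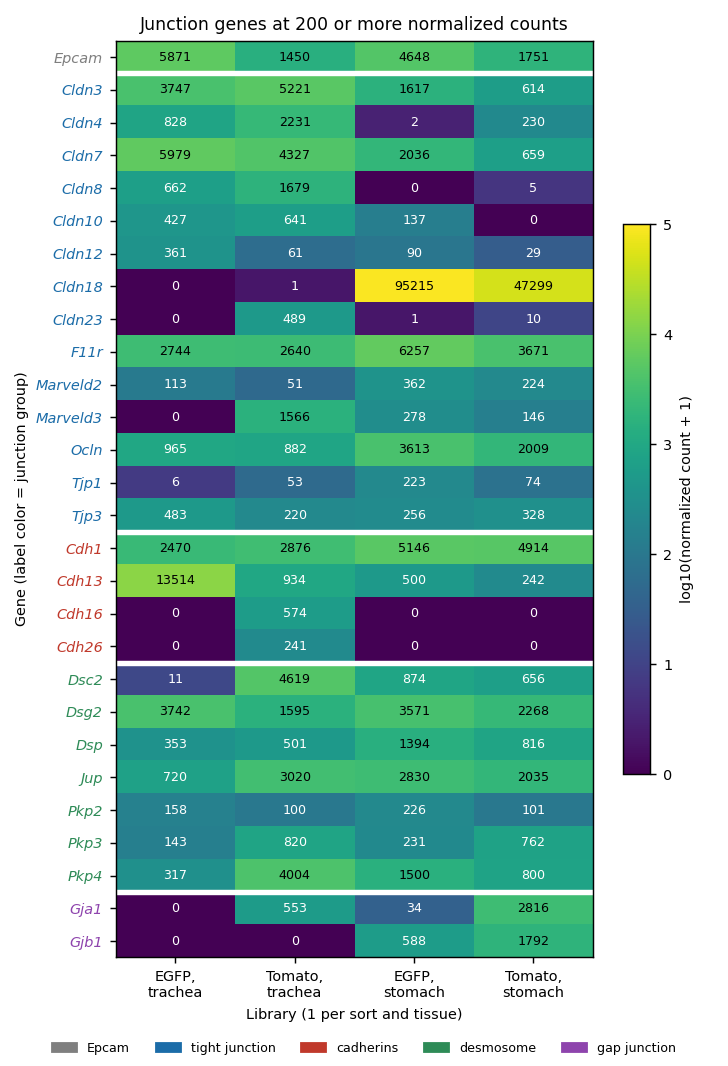
The 28 reported junction genes at 200 or more normalized counts in at least 1 library (rows) in the 4 libraries (columns), with the normalized count printed in each cell and its log10(count + 1) as color; label colors mark the junction group. Cldn18 stands at 95215 and 47299 in the stomach and at 0 and 1 in the trachea, and Cdh13 at 13514 in the EGFP library of the trachea against at most 934 elsewhere.

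Tight junction genes were led by different claudins in the trachea and the stomach. Cldn18, a claudin known for separate lung and stomach forms, was at 0, 1, 95215 and 47299 normalized counts. The counts were almost wholly in the stomach libraries, and the 95215 and 47299 differed 2.01-fold (95% interval 1.99 to 2.03, exact binomial on estimated reads, counting error only, as for all intervals below). Per kb of exon length, Cldn18 made up 89.9% of all claudin signal in the EGFP library of the stomach (95% interval 89.6 to 90.1) and 91.7% in the Tomato library (91.3 to 92.0). In the trachea, Cldn7 and Cldn3, sealing claudins of many epithelia, led in its place. Per kb, Cldn7 made up 43.6% and Cldn3 42.3% of the claudin signal in the EGFP library, whose intervals overlap (42.5 to 44.8 and 41.1 to 43.5). In the Tomato library of the trachea Cldn3 led with 46.3% (45.5 to 47.0), before Cldn7 with 24.8% (24.2 to 25.4) and Cldn4 with 13.7% (13.2 to 14.2).

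The gene Cldn18 lies on chr9:99689461-99717267 (GRCm38, minus strand), and RefSeq gives it an outer start at the end of the gene and an inner start further along. The deposited value is a sum over the gene, so forms that begin at different starts cannot be told apart here. The promoters of the 2 starts are printed because the high counts of the stomach could come from either, from 250 bases before to 50 bases after each start, 5′ to 3′ (RefSeq, GRCm38.p6). The first covers chr9:99710014-99710313 and the second chr9:99717218-99717517, both on the minus strand. Capitals mark CAAGTG, a sequence bound by NKX2 homeodomain factors, searched on both strands.
Cldn18, inner start: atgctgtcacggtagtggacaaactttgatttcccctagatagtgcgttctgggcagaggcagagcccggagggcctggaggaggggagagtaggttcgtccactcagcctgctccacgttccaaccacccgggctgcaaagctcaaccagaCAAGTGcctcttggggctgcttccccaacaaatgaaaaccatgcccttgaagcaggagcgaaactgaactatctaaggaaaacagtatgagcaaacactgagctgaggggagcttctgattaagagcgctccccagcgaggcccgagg
Cldn18, outer start: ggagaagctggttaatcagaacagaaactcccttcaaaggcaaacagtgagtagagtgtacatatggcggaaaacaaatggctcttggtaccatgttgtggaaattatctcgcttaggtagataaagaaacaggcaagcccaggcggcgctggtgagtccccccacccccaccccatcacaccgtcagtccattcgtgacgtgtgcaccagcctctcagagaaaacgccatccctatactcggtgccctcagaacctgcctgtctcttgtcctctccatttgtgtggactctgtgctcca
The window of the inner start held 1 CAAGTG and that of the outer start none. It occurred in 16 of the 70 promoters that RefSeq gives for 52 of the junction genes (22.9%) and in 13.6% of 32851 promoters in all. A match is a stretch of letters and was not tested as a binding site.

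Cldn3 was at 3747, 5221, 1617 and 614 normalized counts and Cldn7 at 5979, 4327, 2036 and 659. Both were present in all 4 libraries, highest in the trachea and lowest in the Tomato library of the stomach. Cldn4, another sealing claudin, was at 828, 2231, 2 and 230, so that its lowest value, in the EGFP library of the stomach, lay at about the floor of 3 reads. Cldn8, which acts with Cldn4 in the kidney collecting duct, was at 662, 1679, 0 and 5. Cldn4 and Cldn8 were thus both present in each library of the trachea, while in the stomach only the Tomato library held Cldn4 at 50 or more and neither held Cldn8 there.

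Cldn3 and Cldn4 lie on chromosome 5 in opposite orientation, 39.3 kb apart (chr5:134986214-134987472, plus strand, and chr5:134945119-134946934, minus strand). Their promoters are shown because these neighbours differed in the EGFP library of the stomach, at 1617 against 2 normalized counts. Capitals mark the E-box CACCTG, or CAGGTG on the other strand, a sequence bound by SNAIL and ZEB repressors of epithelial genes. The windows are chr5:134985964-134986263 and chr5:134946885-134947184.
Cldn3: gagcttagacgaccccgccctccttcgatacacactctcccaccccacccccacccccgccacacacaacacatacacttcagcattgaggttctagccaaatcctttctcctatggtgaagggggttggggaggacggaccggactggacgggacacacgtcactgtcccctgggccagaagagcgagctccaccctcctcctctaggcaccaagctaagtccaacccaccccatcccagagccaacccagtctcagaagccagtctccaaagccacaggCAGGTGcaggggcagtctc
Cldn4: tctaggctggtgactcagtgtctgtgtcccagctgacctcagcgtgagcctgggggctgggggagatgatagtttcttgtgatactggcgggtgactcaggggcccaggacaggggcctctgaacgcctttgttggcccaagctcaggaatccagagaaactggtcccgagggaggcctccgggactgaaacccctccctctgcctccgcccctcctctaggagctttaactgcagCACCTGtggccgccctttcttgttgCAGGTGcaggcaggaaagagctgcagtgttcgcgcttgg
The window of Cldn3 held 1 E-box and that of Cldn4 held 2. Of the 70 junction gene promoters 22 held an E-box (31.4%), against 20.2% of all 32851 promoters, and the octamer ATGCAAAT, the sequence of POU factors, was in none of the 70 and in 1.74% of all. These shares are given as descriptions, without a test.

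Cldn10, an ion pore claudin, was at 427, 641, 137 and 0 normalized counts, and Cldn23 at 0, 489, 1 and 10. Cldn12 was at 361, 61, 90 and 29, highest in the EGFP library of either tissue. Cldn5, known from endothelium, and Cldn11, known from myelin and testis, were at 94 and 89 in the Tomato library of the trachea and listed at 0 in the other 3. The 10 endothelial marker genes summed to 496, 4294, 1330 and 1776 normalized counts, with 8 of them at 0 in the EGFP library of the trachea and 2, Tek and Vwf, at 0 in the Tomato library. Their part in Cldn5 was not tested.

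The MARVEL genes and F11r differed in how widely they were found. Ocln, which encodes occludin, was at 965, 882, 3613 and 2009 normalized counts, and F11r, a junctional adhesion molecule, at 2744, 2640, 6257 and 3671. As deposited, both were higher in each library of the stomach than in each library of the trachea. In the trachea their EGFP and Tomato values, as deposited, differed by less than counting error, with ratios of 1.09 (0.99 to 1.21) for Ocln and 1.04 (0.98 to 1.10) for F11r. These ratios depend on the scaling. With both libraries scaled to the same total, the all-gene median log2 ratio of the trachea moved from -0.32 to 0.35, and ratios near 1 moved with it. Marveld2, the tricellulin of contacts between 3 cells, was at 113, 51, 362 and 224, with the same order. Marveld3 was at 0, 1566, 278 and 146, and Marveld1, which lay between 50 and 199 at its highest, reached 184 in the EGFP library of the trachea. Marveld3 thus had its highest value in the Tomato library of the trachea and none in the EGFP library beside it.

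Of the zonula occludens genes, Tjp3 was at 483, 220, 256 and 328 normalized counts and Tjp1 at 6, 53, 223 and 74. Tjp3 was highest and Tjp1 lowest in the EGFP library of the trachea.

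**Figure D2:**
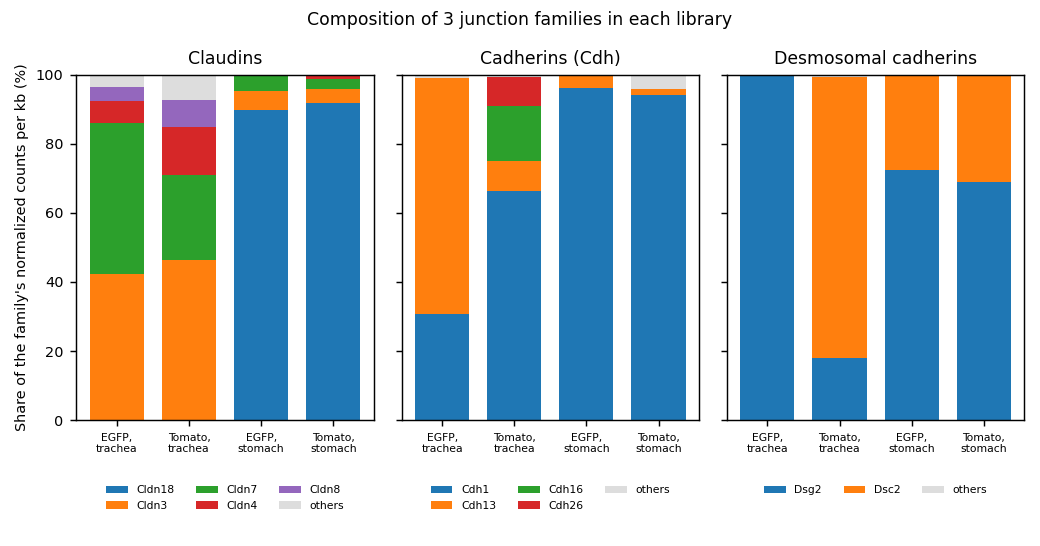
Share of each gene (vertical axis, %) in the normalized counts per kb of exon length of 3 junction families, with 1 bar for each library. Cldn18 fills 89.9% and 91.7% of the claudin bars of the stomach, Cdh13 68.3% of the cadherin bar of EGFP-positive tracheal cells, and Dsc2 81.4% of the desmosomal cadherin bar of Tomato-positive tracheal cells.

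Among the 23 cadherins, 8 reached 50 normalized counts and 4 reached 200. Cdh1, the E-cadherin of adherens junctions (chr8:106603351-106670246), was at 2470, 2876, 5146 and 4914, and differed little between the sorts of a tissue. The EGFP to Tomato ratio of Cdh1 was 0.859 (0.809 to 0.912) in the trachea and 1.05 (1.01 to 1.08) in the stomach, and the log2 ratio of -0.22 in the trachea turned to 0.36 when both libraries were scaled to the same total. Cdh13, which encodes T-cadherin, a cadherin that is anchored by a lipid and lacks the tail that binds catenins (chr8:118283733-119324921), was at 13514, 934, 500 and 242. The EGFP library of the trachea thus stood far above the other 3. Per kb, Cdh13 made up 68.3% of cadherin signal there (67.1 to 69.4), with Cdh1 at 30.7% (29.5 to 31.8), whereas Cdh1 made up 66.2% in Tomato-positive tracheal cells (64.9 to 67.5), 96.1% in EGFP-positive gastric cells (95.8 to 96.4) and 94.0% in Tomato-positive gastric cells (93.5 to 94.5).

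Cdh16, known as the kidney-specific cadherin, was at 0, 574, 0 and 0 normalized counts, and Cdh26 at 0, 241, 0 and 0. Both were thus listed above 0 in the Tomato library of the trachea alone. The other 4 cadherins lay between 50 and 199 at their highest. Cdh2 (N-cadherin) reached 79 and Cdh4 (R-cadherin) 60 in EGFP-positive tracheal cells. Cdh5 (VE-cadherin of endothelium) reached 122 and Cdh11, a cadherin of mesenchymal cells, 115 in Tomato-positive gastric cells. In that library the endothelial markers summed to 1776 normalized counts with none at 0, and the 6 fibroblast markers to 26105, against 478, 25749 and 254 in the EGFP trachea, Tomato trachea and EGFP stomach libraries. Col1a1, a defining fibroblast gene, was at 0, 3982, 86 and 10478. The Tomato library of the trachea, where the endothelial markers summed to 4294 normalized counts, 3003 of them from Emcn, had Cdh5 at 0 and Cdh11 at 2. The part of these cell types in Cdh5 and Cdh11 was not tested. In such pooled libraries, fewer cells of a type and less RNA per cell cannot be told apart.

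Among the desmosome genes, 7 of 15 reached 200 normalized counts in some library. Dsg2, a desmoglein of simple epithelia, was at 3742, 1595, 3571 and 2268, and Dsc2, its desmocollin partner, at 11, 4619, 874 and 656. The balance between them differed among libraries. Per kb, Dsg2 made up 99.5% of desmosomal cadherin signal in EGFP-positive tracheal cells (99.0 to 99.8), 72.3% in EGFP-positive gastric cells (70.9 to 73.6) and 68.8% in Tomato-positive gastric cells (67.1 to 70.5), but only 17.9% in Tomato-positive tracheal cells (17.2 to 18.7), where Dsc2 made up 81.4% (80.6 to 82.2). Dsg3 and Dsc3, desmosomal cadherins of basal layers, were at 40 and 7 in that library and listed at 0 in the other 3.

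Of the plaque genes, all but Pkp1 were above 0 in every library. Jup, the plakoglobin shared by desmosomes and adherens junctions, was at 720, 3020, 2830 and 2035 normalized counts. Dsp, the desmoplakin that holds keratin filaments, was at 353, 501, 1394 and 816. As deposited, both were lowest in EGFP-positive tracheal cells. For Dsp this depends on the scaling, since its log2 ratio of -0.50 in the trachea turned to 0.07 when both libraries were scaled to the same total. Of the plakophilins, Pkp2 was at 158, 100, 226 and 101, Pkp3 at 143, 820, 231 and 762, and Pkp4, an armadillo protein also found at adherens junctions, at 317, 4004, 1500 and 800. Pkp3 was higher in the Tomato library of either tissue, while Pkp4 had its peak in Tomato-positive tracheal cells. Pkp1, a plakophilin of stratified epithelium, reached no more than 39.

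Among the connexins, the set above 0 differed from library to library. Gjb1, known from liver and other secretory epithelia (chrX:101376378-101385629), was at 0, 0, 588 and 1792 normalized counts, and thus above 0 in the stomach alone. Gja1, the most widespread connexin (chr10:56377330-56402513), was at 0, 553, 34 and 2816, and so was higher in the Tomato library of either tissue. Gjb2, Gjb5 and Gjb6, which are connexins of skin and other stratified epithelia, reached 117, 131 and 181 in Tomato-positive tracheal cells alone. Gja4 of endothelium and Gjc1 of smooth muscle reached 178 and 78 in Tomato-positive gastric cells alone.

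Per kb, Gjb1 made up 99.0% of connexin signal (98.7 to 99.3) in EGFP-positive gastric cells. In Tomato-positive gastric cells it made up 72.2% (71.0 to 73.4), before Gja1 with 18.9% (18.1 to 19.7) and Gja4 with 7.27% (6.40 to 8.25).

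Markers of stratified epithelium summed highest in the Tomato library of the trachea, the library with Gjb2, Gjb5 and Gjb6. This was not particular to them, since other lists also had their highest sum there, among them the club (483341), myeloid (44207) and mesothelial (12874) markers. The 4 basal cell markers summed to 1545, 143176, 1 and 47 normalized counts, and the 7 squamous markers to 557, 67151, 60 and 281. Krt5, a defining basal gene, was at 109, 18168, 0 and 12, and Krt4, a squamous keratin, was at 52247 in the Tomato library of the trachea and at 0 in the other 3. Of the squamous list, Ivl, Krt1 and Lor were at 0 in that Tomato library, and Krt1 and Krt10 were higher in EGFP-positive tracheal cells, at 324 against 0 and 233 against 47. The smooth muscle markers summed to 89, 947, 176 and 2249, the last being the library with Gjc1. Gja1 was higher in the Tomato library of either tissue, as were the smooth muscle markers. So were the fibroblast markers, which summed to 478, 25749, 254 and 26105. This was not particular to them, since the myeloid markers were also higher in both Tomato libraries, while the tuft cell markers were lower. The part of these cells in Gja1, Gjb2, Gjb5, Gjb6, Dsc2, Dsg3, Cldn4 and Gjc1 was not tested.

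The first comparison asked how EGFP-positive cells differ from the Tomato-positive cells, gated on EpCAM, in the trachea. With no replicates there was no test, and a gene was called from 4-fold on, as log2((a + 1)/(b + 1)) of at least 2 or at most -2, with 50 or more normalized counts in the higher library. Of the 37 junction genes at the minimum, 5 were called higher in EGFP-positive cells and 17 lower. Over all 10523 genes at the minimum, 25.2% were called higher and 32.4% lower. The median log2 ratio was -1.34 for the junction genes and -0.32 for all genes, and both medians were unchanged with zeros set to 3 reads. Scaled to the same total, the 2 libraries gave an all-gene median of 0.35 in place of -0.32, with 6 junction genes higher and 14 lower, so the values below stand against that shift.

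The 5 genes called higher were Epcam, Cdh13, Cdh2, Cdh4 and Cldn12. Cdh13 was 14.5-fold higher (13.6 to 15.4), at 13514 against 934 normalized counts. Cldn12 was 5.92-fold higher (4.56 to 7.82) and Cdh2 5.27-fold (2.97 to 9.23). Cdh4 stood at 60 against 1, 60-fold (12.4 to 2990), since the lower value is about 1 read. Marveld1 lay just under the limit with a log2 ratio of 1.98 and was called higher, at 2.55, when the libraries were scaled to the same total. With a pseudocount of 10 the call of Cdh2 was lost, at 1.83.

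Epcam encodes the surface protein on which the Tomato sort, but not the EGFP sort, was gated, and was at 5871, 1450, 4648 and 1751 normalized counts. It was higher in the EGFP library of either tissue, 4.05-fold in the trachea (3.83 to 4.29) and 2.65-fold in the stomach (2.53 to 2.79). The protein of the gate and the transcript are different measures, and the gate was set on the Tomato sort alone. Its promoter (chr17:87635729-87636028, plus strand) is shown for the 2 E-boxes in capitals.
Epcam: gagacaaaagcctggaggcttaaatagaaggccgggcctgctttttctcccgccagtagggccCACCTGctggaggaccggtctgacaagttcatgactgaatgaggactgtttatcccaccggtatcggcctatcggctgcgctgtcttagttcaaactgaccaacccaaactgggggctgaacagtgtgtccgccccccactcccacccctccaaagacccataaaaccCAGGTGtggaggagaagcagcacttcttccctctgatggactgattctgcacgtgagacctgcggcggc

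Of the 17 genes called lower in EGFP-positive tracheal cells, 12 were listed at 0 there. Among these were Cdh16, Cdh26, Gja1, Gjb2, Gjb5, Gjb6, Cldn5, Cldn11, Cldn23 and Marveld3, with between 89 and 1566 normalized counts in the Tomato library. The other 5 were measured in both libraries. Dsc2 was 420-fold higher in Tomato-positive cells (199 to 1020), from 7 estimated reads in EGFP-positive cells. Pkp4 was 12.6-fold higher (10.9 to 14.6), Tjp1 8.83-fold (3.09 to 31.3), Pkp3 5.73-fold (4.61 to 7.19) and Jup 4.19-fold (3.80 to 4.64). Scaled to the same total, Jup and Pkp3 fell short of the limit, with log2 ratios of -1.49 and -1.94, and Tjp1 fell under the minimum, at 48 in the Tomato library. By group, 5 of 6 connexins, 4 of 7 desmosome genes, 6 of 17 tight junction genes and 2 of 6 cadherins at the minimum were called lower, and 3 cadherins and 1 tight junction gene were called higher. The median log2 ratio was -7.28 for the connexins, or -5 with zeros at 3 reads, -2.07 for the desmosome, -0.58 for the tight junction and 1.05 for the cadherins.

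The sorts of the stomach were compared by the same rule. Of 29 junction genes at the minimum, 1 was called higher in EGFP-positive cells and 6 lower, against 14.8% higher and 22.4% lower of 11094 genes in all. The median log2 ratio was 0.69 for the junction genes and -0.15 for all genes. Cldn10 was the gene called higher, at 137 against 0 normalized counts. The 6 called lower were Gja1, Cldn4, Cdh5, Cdh11, Gja4 and Gjc1, of which the last 4 were listed at 0 in EGFP-positive cells. Gja1 was 82.8-fold higher in Tomato-positive cells (61.7 to 115), and Cldn4 115-fold (33.1 to 476), from 3 estimated reads.

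None of the 7 desmosome genes at the minimum was called in the stomach, and their median log2 ratio was 0.65. The ratios of Dsg2, Dsc2, Dsp, Jup, Pkp2 and Pkp4 lay between 1.33 and 2.24 and that of Pkp3 at 0.303 (0.265 to 0.346). The tight junction genes had a median of 0.92, with Cldn7 at 3.09-fold (2.85 to 3.35), Tjp1 at 3.01-fold (2.36 to 3.85), Cldn3 at 2.63-fold (2.42 to 2.87), Ocln at 1.80-fold (1.71 to 1.89) and F11r at 1.70-fold (1.64 to 1.77). Cldn4 and Tjp3 had higher values in Tomato-positive gastric cells, and of the tight junction genes Cldn10 alone was called higher in EGFP-positive gastric cells. Plasma cell genes were also higher in that library, with the lymphoid markers at a sum of 682534 normalized counts against 36930 in Tomato-positive gastric cells. Igkc, an immunoglobulin light chain gene, supplied 530119 and 28372 of these, and Cd3e of T cells was at 0. Their part in the junction gene values was not tested.

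**Figure D3:**
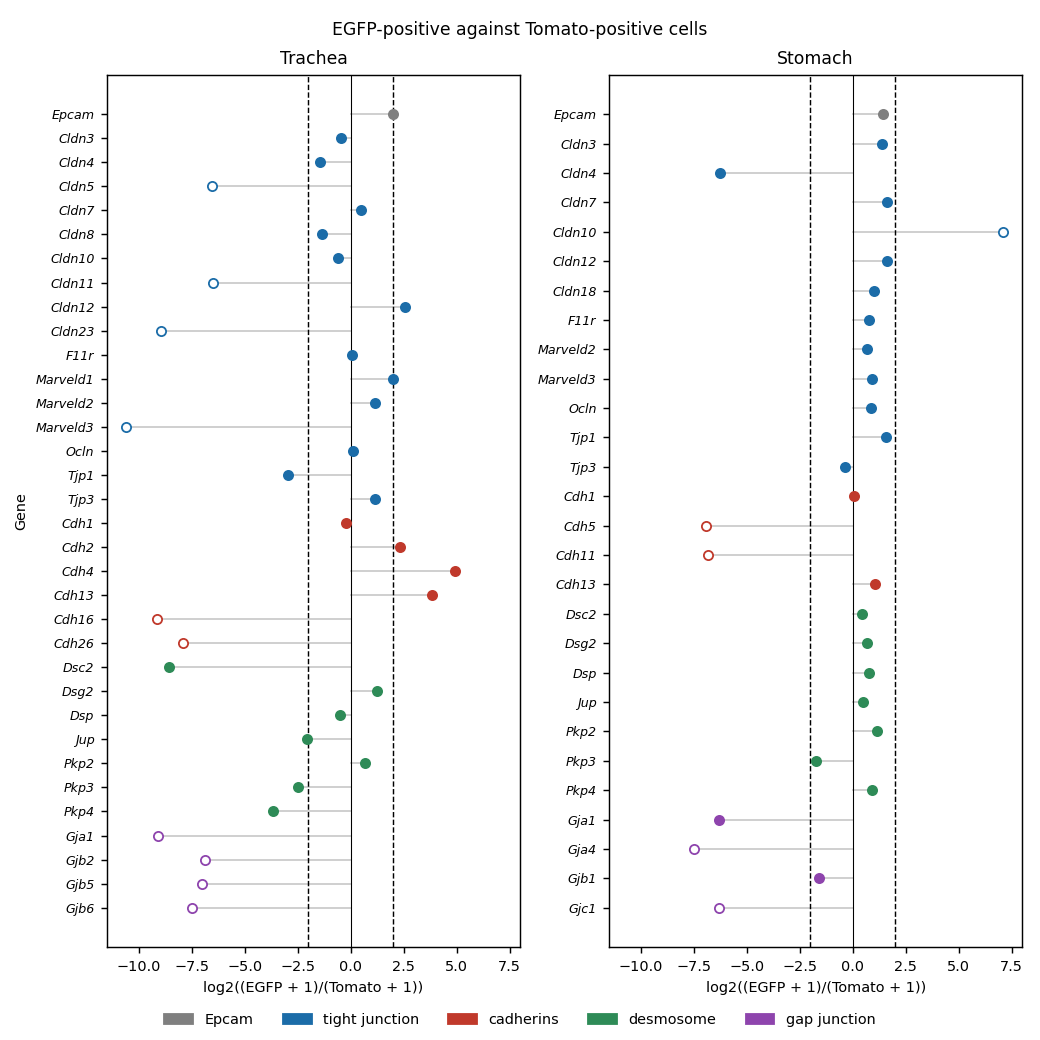
log2((EGFP + 1)/(Tomato + 1)) of junction genes with 50 or more normalized counts in at least 1 library of the tissue, trachea left and stomach right; dashed lines mark 4-fold, open circles a gene listed at 0 in the lower library, colors the junction group. Of the genes drawn, 15 of 34 in the trachea lie at or below the lower line and 5 at or above the upper line, and 6 and 1 of 28 in the stomach.

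The Tomato libraries, gated on EpCAM, were next compared between the tissues. They also held markers of other cells, with fibroblast markers at 25749 in the trachea and 26105 in the stomach, and endothelial markers at 4294 and 1776. The part of such cells in this contrast was not tested. The contrasts between tissues use the same 4 libraries as those above and are no independent evidence. Of 40 junction genes at the minimum, 18 were called higher in the trachea and 8 higher in the stomach, against 20.3% and 27.9% of 11338 genes in all. The median log2 trachea to stomach ratio was 0.81, against -0.11 for all genes. All 9 connexins at the minimum were called, with Gjb2, Gjb5 and Gjb6 among those higher in the trachea and Gja1, Gja4, Gjb1 and Gjc1 those higher in the stomach. Gja1, the only one of them measured in both, was 5.09-fold higher in the stomach (4.69 to 5.53).

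Of the 17 tight junction genes, 9 were called higher in the trachea and 2 higher in the stomach. Cldn8 was 336-fold higher in the trachea (157 to 935), Cldn23 48.9-fold (28.3 to 97.1), Marveld3 10.7-fold (9.19 to 12.6), Cldn4 9.70-fold (8.57 to 11), Cldn3 8.50-fold (7.88 to 9.18) and Cldn7 6.57-fold (6.10 to 7.08). Cldn5, Cldn10 and Cldn11 were listed at 0 in the stomach. Cldn18 and Marveld2 were called higher in the stomach, Marveld2 4.39-fold (3.33 to 5.87), a call lost at a log2 ratio of -1.94 with a pseudocount of 10, and Cldn18 47300-fold (10500 to 2310000), since the trachea value is 1 estimated read. Of the desmosome genes Dsc2 was 7.04-fold (6.54 to 7.60) and Pkp4 5.00-fold (4.67 to 5.36) higher in the trachea, and the other 5 were not called, with ratios between 0.614 and 1.48. Pkp4 lay under the limit, at a log2 ratio of 1.89, once the 10 highest genes of each library were left out of the total.

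Between the EGFP libraries of the 2 tissues, 7 of 29 junction genes were called higher in the trachea and 7 higher in the stomach, against 19.8% and 28.3% of 10337 genes in all. The median was -0.51, against -0.16 for all genes. Scaled to the same total, the counts were 10 and 6, with Cldn7, Cldn10 and Cldn12 added to those higher in the trachea and Pkp4 lost from those higher in the stomach, and the all-gene median was 0.34. The genes higher in the trachea included Cdh13, Cdh2, Cdh4, Cldn4, Cldn8 and Marveld1. Cdh13 was 27-fold higher (24.9 to 29.3) and Cldn4 414-fold (119 to 1710), from 2 normalized counts in the stomach, while the other 5 were listed at 0 in the stomach. Those higher in the stomach included Cldn18, Gjb1 and Marveld3, listed at 0 in the trachea, and Dsc2 at 79.5-fold (37.5 to 193), Tjp1 at 37.2-fold (13.4 to 128) and Pkp4 at 4.73-fold (4.08 to 5.51). Dsp and Jup lay just short of the limit, with log2 ratios of -1.98 and -1.97, and Dsg2 was nearly level at 1.05-fold (0.996 to 1.10).

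**Figure D4:**
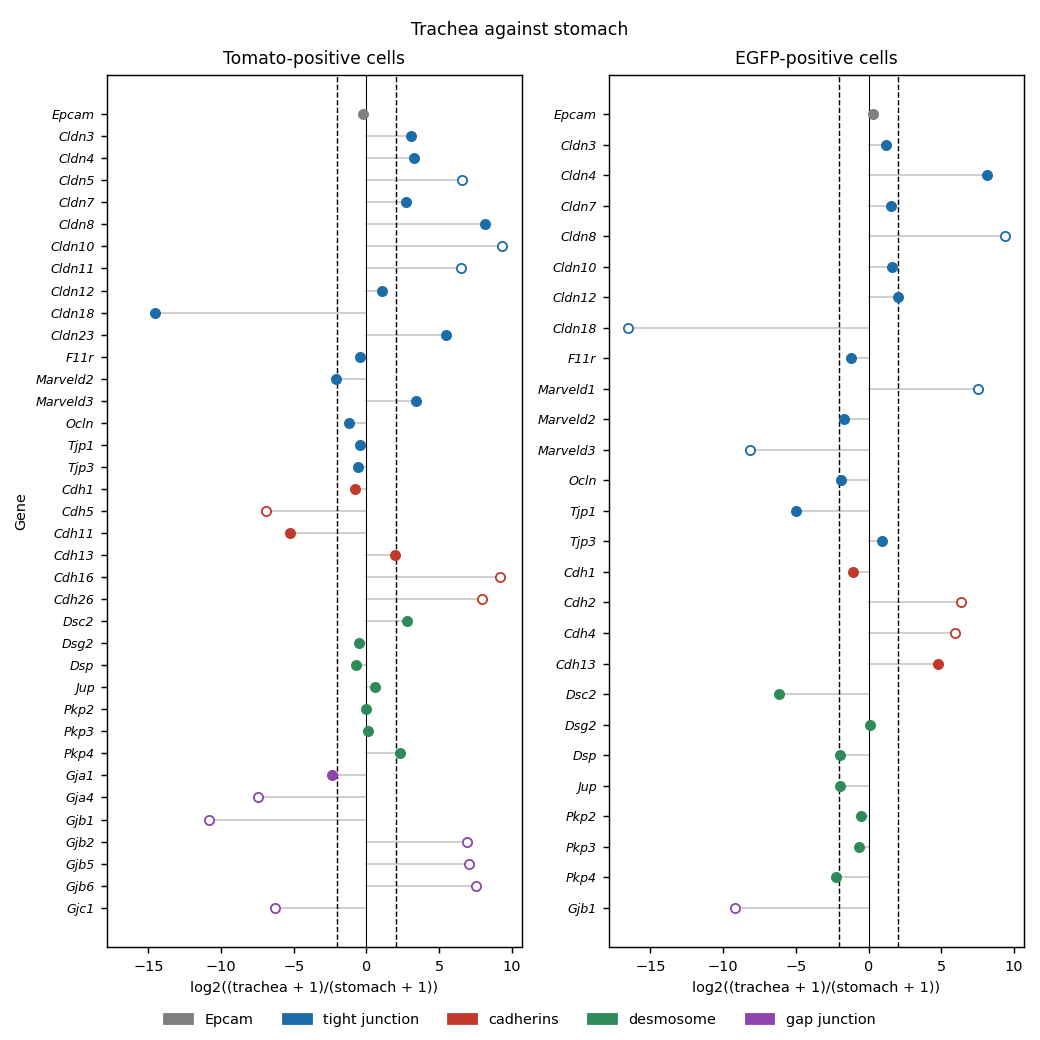
log2((trachea + 1)/(stomach + 1)) of junction genes with 50 or more normalized counts in at least 1 of the 2 libraries, Tomato-positive cells left and EGFP-positive cells right; dashed lines mark 4-fold, open circles a gene listed at 0 in the lower library, colors the junction group. Cdh13 lies at 1.94 and 4.75, and Cldn18 lies farthest to the left in both panels, as an open circle in EGFP-positive cells.

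A fit over all 4 libraries gave each gene a sort difference averaged over the tissues and a tissue difference averaged over the sorts. Such an average does not show that a gene differed in each of them. Dsc2, for example, had a sort difference of -4.09, with log2 ratios of -8.59 in the trachea and 0.41 in the stomach. limma with tissue and sort as terms was fitted to 13023 genes, 43 of them junction genes, and left 1 residual degree of freedom, so that the 2 tissues stand in for replicates. For the sort effect, Gja1 was the only junction gene with a Benjamini-Hochberg adjusted p under 0.05, and it was lower in EGFP-positive cells, by a log2 difference of -7.72 (SE 2.15, adjusted p = 0.0191). None was called higher, and Cdh13 and Epcam were the 2 with an unadjusted p under 0.05 in that direction. Over all genes 0.929% were called higher and 1.41% lower. For the tissue effect, Cldn8 (log2 difference 8.75, SE 2.53, adjusted p = 0.0354), Cldn4 (5.69, SE 1.68, adjusted p = 0.0429) and Cdh13 (3.35, SE 0.99, adjusted p = 0.0457) were called higher in the trachea by limma. Cldn18 (-15.53, SE 1.44, adjusted p = 8.02e-24) and Gjb1 (-10.01, SE 2.89, adjusted p = 0.0354) were called higher in the stomach by limma. Over all genes 0.653% were called higher in the trachea and 1.09% lower. With a pseudocount of 10 the limma differences were -5.91 for Gja1, 6.44 for Cldn8, 4.67 for Cldn4, 3.32 for Cdh13, -12.64 for Cldn18 and -6.70 for Gjb1, and all 6 calls were kept. With a minimum of 10 normalized counts the limma calls of Cldn4 (adjusted p = 0.0571) and Cdh13 (adjusted p = 0.064) were lost, and scaled to the same total that of Gjb1 (adjusted p = 0.0536). These calls rest on the trend of the variance with expression level, which supplied nearly all degrees of freedom. Without it limma called 0 of the 13023 genes for either effect, with adjusted p of 0.643 for Gja1 and between 0.509 and 0.703 for the other 5, although 273 genes were higher and 703 lower by sort and 213 higher and 883 lower by tissue at an unadjusted p under 0.05.

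Genes outside the group whose products sit at or under the same junctions were described by the same rule. Of 43 such genes, 38 reached 50 normalized counts. In the trachea, 9 of 28 were called higher and 9 lower in EGFP-positive cells, and in the stomach 3 of 33 were called higher and 6 lower. These are 32.1% each way in the trachea, against 25.2% higher and 32.4% lower over all genes, and 9.09% and 18.2% in the stomach, against 14.8% and 22.4%. The catenins, which link cadherins to actin, did not move together. Ctnna1 was at 564, 2450, 2070 and 2457, Ctnnb1 at 174, 2740, 1765 and 599 and Ctnnd1 at 340, 9, 200 and 325. In the trachea Ctnnb1 was 15.7-fold (13 to 19.3) and Ctnna1 4.34-fold (3.89 to 4.87) higher in Tomato-positive cells, and Ctnnd1 37.8-fold higher in EGFP-positive cells (20.9 to 77.6), from 9 normalized counts in the lower library. None of the 3 was called between the sorts of the stomach. Scaled to the same total, the numbers called in the trachea were 9 higher and 7 lower, and in the stomach 5 of each. The numbers over all genes moved as well. They went from 2651 higher and 3411 lower to 3227 and 2943 in the trachea, and from 1639 and 2487 to 1787 and 2236 in the stomach.

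The largest differences higher in EGFP-positive tracheal cells were those of Cdhr5, at 560 against 0 normalized counts, Panx1, a pannexin channel, at 333 against 0, Mpp5, a polarity protein of the Crumbs complex, at 1375 against 8, and Sympk, at 58 against 0. The rank of Cdhr5, Panx1 and Sympk, each set against a 0, depends on the pseudocount, most of all for Sympk with its low value. Cdhr5 and Cdhr2 encode the cadherins that link the tips of microvilli. In the stomach Cdhr2 was 15.8-fold (14.7 to 16.9) and Cdhr5 7.69-fold (6.96 to 8.52) higher in EGFP-positive cells. Cdhr2 was at 2, 0, 10773 and 683 and Cdhr5 at 560, 0, 2752 and 358, so that both were higher in the EGFP library of the stomach than in any other. Ildr1, which recruits tricellulin to contacts between 3 cells, was at 3550, 383, 602 and 242 and was named after its values were seen.

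In Tomato-positive tracheal cells, Cgnl1 was at 441 against 0 and Ppl, which encodes periplakin of the cornified envelope, at 587 against 5 in EGFP-positive tracheal cells. In Tomato-positive gastric cells, Nectin3 and Jam3, both adhesion molecules, were at 700 and 548 against 6 and 2 in EGFP-positive gastric cells. Between the tissues, 7 of 35 were called higher in the trachea and 12 higher in the stomach for the Tomato libraries, and 6 and 12 of 31 for the EGFP libraries. These are 20% and 34.3%, against 20.3% and 27.9% over all genes, for the Tomato libraries and 19.4% and 38.7%, against 19.8% and 28.3%, for the EGFP libraries. Magi1, a scaffold of tight junctions, was at 0, 28, 970 and 388, and was called higher in the stomach for both sorts.

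The 85 genes together took a small share of all normalized counts in every library. It was 0.449% in EGFP-positive and 0.292% in Tomato-positive cells of the trachea, and 0.969% and 0.488% in those of the stomach. Without Cldn18 it was the same in the trachea and 0.27% and 0.182% in the stomach. The EGFP library held the larger share in either tissue, with and without Cldn18, and these shares do not depend on the factors by which the libraries were scaled. In the trachea, however, Cdh13 and Epcam supplied 13514 and 5871 of the 44832 junction gene counts of the EGFP library. In the Tomato library they supplied 934 and 1450 of 43461. The larger share of the EGFP library of the trachea thus leaned on these genes and does not describe junction genes in general.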

How the data were processed

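RNA-seq was performed on EGFP-positive and Tomato-positive cells sorted from trachea and stomach, with 1 library for each sort and tissue and cells pooled from 3 mice. Full-length cDNA was pre-amplified with a SMART-Seq kit, without molecular identifiers. Per the submitters' processing notes and the methods, the authors aligned reads to GRCm38 with STAR 2.4.0a and counted reads over exons with featureCounts 1.4.5-p1. The deposited signal is a normalized count per gene, which the authors scaled library by library and wrote as whole numbers. The sources used here do not give the method of scaling.

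What 1 read is worth was taken per library from the spacing of values between 3 and 60, which gave 6200000, 18400000, 17300000 and 18900000 estimated reads (EGFP trachea, Tomato trachea, EGFP stomach, Tomato stomach). Intervals (95%, exact binomial for ratios, delta method for shares) and the floor of 3 reads cover counting error only. Because the values are rounded signal, no count model was run, and against a library at 0 no ratio with an interval or bound was given. Log2 values against a 0 depend on the pseudocount.

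Ratios are log2((a + 1)/(b + 1)), called at 2 or more and at -2 or less with 50 or more normalized counts in the higher library. The fit over all libraries used limma 3.58.1 in R 4.3.3 (eBayes with trend, sort and tissue as terms) on log2(normalized count + 1), with Benjamini-Hochberg adjustment over all genes that reached 50 in some library and a threshold of 0.05. With 1 pool for each group, the fit held no spread between replicates, so biological and technical parts cannot be told apart. Its residual is the difference of the sort effect between the tissues. With the trend, the variance behind the p-values came almost wholly from the trend over all genes. Scripts were tested on simulated data with Python 3.11.15, pandas 2.3.3 and scipy 1.17.1. Exon lengths and coordinates are from GENCODE on GRCm38. Promoters are from RefSeq (GRCm38.p6). Of the junction genes, 74 share no exonic base with another gene, and Cldn22, listed at 0 throughout, was the only one with more than 20% shared.

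Members and gene lists were chosen with earlier results of these data known. Some junction and related genes are not reported here by name or value, although counts and medians over a list include them. Values in all libraries are given for genes at 200 or more normalized counts, the highest library for those between 50 and 199, and numbers and names for the rest. Of related genes, up to 4 with the largest change in each direction and the catenins Ctnna1, Ctnnb1 and Ctnnd1 are named. Of limma, genes at an adjusted p under 0.05 are named, together with the 2 of smallest unadjusted p where none was called. Alternatives changed the scaling, pseudocount, minimum, fold limit, variance trend and division by length.

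Marker lists for other cell types were summed in each library. Besides those in the results, the sums in the order above were 586, 12874, 5 and 0 for mesothelial, 66, 0, 17 and 126 for glial and neuronal, 527, 44207, 83 and 11808 for myeloid, 17946, 963, 682534 and 36930 for lymphoid, and 70051, 1282, 82839 and 5601 for tuft cell genes. They were 17421, 483341, 1 and 69 for club, 927, 2331, 105 and 2 for ciliated, 15, 12, 105904 and 882574 for pit, 369, 2769, 1388 and 26377 for neck, 10, 2, 46948 and 1083549 for chief, 749, 19, 5055 and 16535 for parietal, and 3, 184, 61 and 216280 for enteroendocrine cell genes.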

Additional observations from a re-analysis of the deposited data

Results flagged for a closer look

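Among junction genes that reached 50 normalized counts in both tissues, 6 were called between the sorts of 1 tissue while the EGFP to Tomato ratio pointed the other way in the other tissue. With 1 library for each sort and tissue this difference was not tested. The share of all genes that meet the same rule was not computed, so the number says nothing particular about junction genes. Over all genes at the minimum, 25.2% were called higher and 32.4% lower by sort in the trachea, and 14.8% and 22.4% in the stomach. Dsc2, a desmocollin, had a log2 ratio of -8.59 in the trachea and 0.41 in the stomach. Marveld3 stood at -10.61 and 0.92, and its value in the trachea is set against a library listed at 0, so its size depends on the pseudocount. Pkp4 stood at -3.65 and 0.91, Tjp1 at -2.95 and 1.58 and Jup, the plakoglobin, at -2.07 and 0.48. Cldn10 went the other way, at -0.58 in the trachea and 7.11 in the stomach, where the Tomato library listed it at 0, so this size too depends on the pseudocount. Scaled to the same total, Jup in the trachea stood at -1.49, under the 4-fold limit, and with a pseudocount of 10 Tjp1 stood at -1.98. Basal cell markers summed to 1545 normalized counts in EGFP-positive and 143176 in Tomato-positive cells of the trachea, and to 1 and 47 in the stomach, and their part in these differences was not tested.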

How the results depend on the processing

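No result turned its called direction under any alternative run. A pseudocount of 0.1 or 10 left the counts of junction genes and of related genes called within 1.5 times their values. So did rescaling to median-of-ratios factors, but these lay between 1.0403 and 1.0462. Factors so nearly equal could hardly change a ratio, so this setting does not show how the results depend on scaling. A pseudocount of 10 ended the calls of Cdh2 and Tjp1 in the trachea by sort and of Marveld2 between the Tomato libraries, which left 1 tight junction gene called higher in the stomach there. Scaling to the same total changed the number of related genes called higher in EGFP-positive gastric cells to 5. Of all genes, 1787 were then called higher there, in place of 1639. The number of junction genes called higher in the stomach by limma fell to 1. This scaling also ended the calls of Jup, Pkp3 and Tjp1 in the trachea, which left 2 desmosome genes called lower. It ended that of Pkp4 between the EGFP libraries, and added Marveld1 to the genes higher in EGFP-positive tracheal cells. With no minimum, 2 junction genes were called higher and 12 lower in EGFP-positive gastric cells. With a minimum of 500 normalized counts, the junction genes called (first direction, then second) were 2 and 7 for EGFP against Tomato in the trachea, 0 and 1 in the stomach, 10 and 3 for trachea against stomach in Tomato-positive cells, and 4 and 4 in EGFP-positive cells. Related genes then numbered 5 higher in the trachea by sort, 2 lower in the stomach by sort, 4 and 4 by tissue in Tomato-positive cells, and 1 and 5 in EGFP-positive cells. Over all genes at this minimum, 1162 were higher and 1459 lower by sort in the trachea, and 663 and 605 in the stomach. Between the tissues they were 1149 and 769 in Tomato-positive and 844 and 917 in EGFP-positive cells. With a 2-fold limit, 9 junction genes were higher by sort in the trachea and 9 in the stomach, 11 and 13 were called between the EGFP libraries, and 11 and 10 related genes between the sorts of the stomach. Of all genes, 3564 of 10523 were then higher by sort in the trachea, and 2882 higher and 3663 lower of 11094 in the stomach. Between the EGFP libraries, 3181 and 3858 of 10337 were called. With an 8-fold limit, 2 junction genes were higher by sort in the trachea, and related genes called higher numbered 1 by sort in the stomach, 3 by tissue in Tomato-positive and 2 in EGFP-positive cells. Of all genes, 2067, 1029, 1541 and 1415 were called higher in these comparisons. Shares were not computed under changed minimums and limits, so these numbers say nothing particular about junction genes. In limma, a minimum of 500 left 0 junction genes lower by sort and 1 each higher and lower by tissue, and without the variance trend 0 remained for either effect. Not divided by length, the leading shares were 49.8% for Cldn7 and 35.1% for Cldn3 in the EGFP and Tomato libraries of the trachea, 96.1% and 96.8% for Cldn18 in those of the stomach, 83.8% for Cdh13 and 61.7%, 90.9% and 90.5% for Cdh1 in the 4 libraries in order, 94.5% and 36.7% for Gjb1 in the stomach, 73.8% for Dsc2 in Tomato-positive tracheal cells and 80.3% and 77.6% for Dsg2 in the stomach. Gja1 then led the connexins of Tomato-positive gastric cells with 57.7%. No library could be left out, since each group holds 1 and limma would have no residual degrees of freedom. With 1 pool in each group, no paired analysis was possible other than the limma fit itself, in which each effect is compared within the levels of the other. The shallowest library, EGFP-positive tracheal cells, limits what its zeros can show.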
